A study of Mus musculus with 20 samples.

Results

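Nuclear genes for subunits of the 5 complexes of oxidative phosphorylation were followed in aortas of C57BL/6J mice, from the ascending and from the descending thoracic part, after water or β-aminopropionitrile (BAPN). They were taken as the protein-coding genes of the count table whose symbols start with the subunit prefixes Ndufa, Ndufb, Ndufc, Ndufs, Ndufv, Sdha to Sdhd, Uqcr, Cox4i, Cox5, Cox6, Cox7, Cox8 and Atp5. The striated-muscle isoforms Cox6a2, Cox7a1 and Cox8b, the assembly factors and symbols marked -ps were left out. The rule found 83 of the 54532 genes counted: 38 of complex I, 4 of complex II, 8 of complex III, 15 of complex IV and 18 of complex V. Of these, 80 had counts enough to be tested. Cox7b2 held 1 count in all, and Cox8c and a second gene ID named Atp5o held 0. The rule also takes in Atp5s, which RefSeq lists as Dmac2l and which is not a structural subunit of the synthase.

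BAPN inhibits the lysyl oxidases, which cross-link elastin and collagen. The 4 groups were ascending aorta under water, ascending aorta under BAPN, descending aorta under water and descending aorta under BAPN, each of 5 libraries, with the treatments lasting 1 week. All groups share the strain; age, sex and route of dosing are not given in the sources used here. The labels do not say which libraries came from which animal, so a p-value here is set against the variation among these libraries only, part of which may be technical.

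Complexes I to IV pass electrons from NADH and succinate to oxygen and, except for complex II, pump protons across the inner mitochondrial membrane; complex V, the ATP synthase, lets the protons flow back and makes ATP. Most subunits are encoded in the nucleus, 13 in mitochondrial DNA, so both genomes have to supply parts of complexes I, III, IV and V. Several subunits come in isoforms that differ between tissues or with oxygen supply. Contractile smooth muscle of the aorta uses both glycolysis and oxidative phosphorylation.

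Library totals ran from 15744725 to 23292294 counts, and the 83 genes held between 0.602% and 0.778% of them (median 0.702%). All 8 smooth muscle markers were at 1 CPM (the counts-per-million scale) or more in every library. They summed to 19840 to 21880 CPM in ascending water and 23090 to 25570 CPM in ascending BAPN libraries. In descending aorta the sums were 20080 to 22710 CPM under water and 23630 to 26340 CPM under BAPN. In neither region did the treatments overlap, and the part of this shift in the BAPN comparisons was not tested. The 10 cardiomyocyte markers summed to 509 to 1487 CPM in the ascending libraries and to 79.6 to 92.8 CPM in the descending ones, and no marker of this list was at 0 in all libraries of a group. The 8 brown adipocyte markers summed to 94.6 to 168.7 CPM in ascending and 124 to 254.6 CPM in descending aorta; Ucp1, which defines brown fat, was at 0.207 to 25.5 CPM in ascending and 24.9 to 97.4 CPM in descending libraries. By the first principal component of 32 pseudogenes outside the 83, the libraries also fell into 2 sets of 10. Pseudogene levels were high in ascending water replicates 4 and 5, all 5 ascending BAPN libraries and descending water replicates 1, 2 and 5, and low in all others, including all 5 descending BAPN libraries. The labels name no batch. In bulk tissue, fewer cells of a type and less RNA per cell cannot be told apart.

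All 5 complexes were expressed in both regions, with levels that differed widely among subunits. Levels are compared between genes as CPM per kb of the principal transcript in ascending aorta under water (mean and SD, n = 5). In complex I the range ran from Ndufa4 at 219.6 (SD 24.2) to Ndufa4l2 at 16 (SD 1.09) CPM per kb. Ndufa4 was first described as a complex I subunit and is now placed in complex IV, and Ndufa4l2 is its paralog known from hypoxic cells. The 4 subunits of succinate dehydrogenase, complex II, lay close together, from 39.7 (SD 2.499) for the membrane anchor Sdhc to 57.3 (SD 2.83) CPM per kb for the flavoprotein Sdha. In complex III the range ran from Uqcrq at 211.5 (SD 20.6) to the core protein Uqcrc2 at 44.7 (SD 2.51) CPM per kb. Complex IV held both the highest and nearly the lowest levels, with Cox6c at 385.5 (SD 39.7) and the testis-type isoform Cox6b2 at 8.55 (SD 1.62) CPM per kb. In complex V the small subunit gene Atp5e stood at 288.5 (SD 19.6) and the catalytic β subunit Atp5b at 262 (SD 18.7), while Atp5s was at 3.79 (SD 0.252) CPM per kb. Lengths are of 1 annotated transcript a gene, so these levels are approximate.

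**Figure D1:**
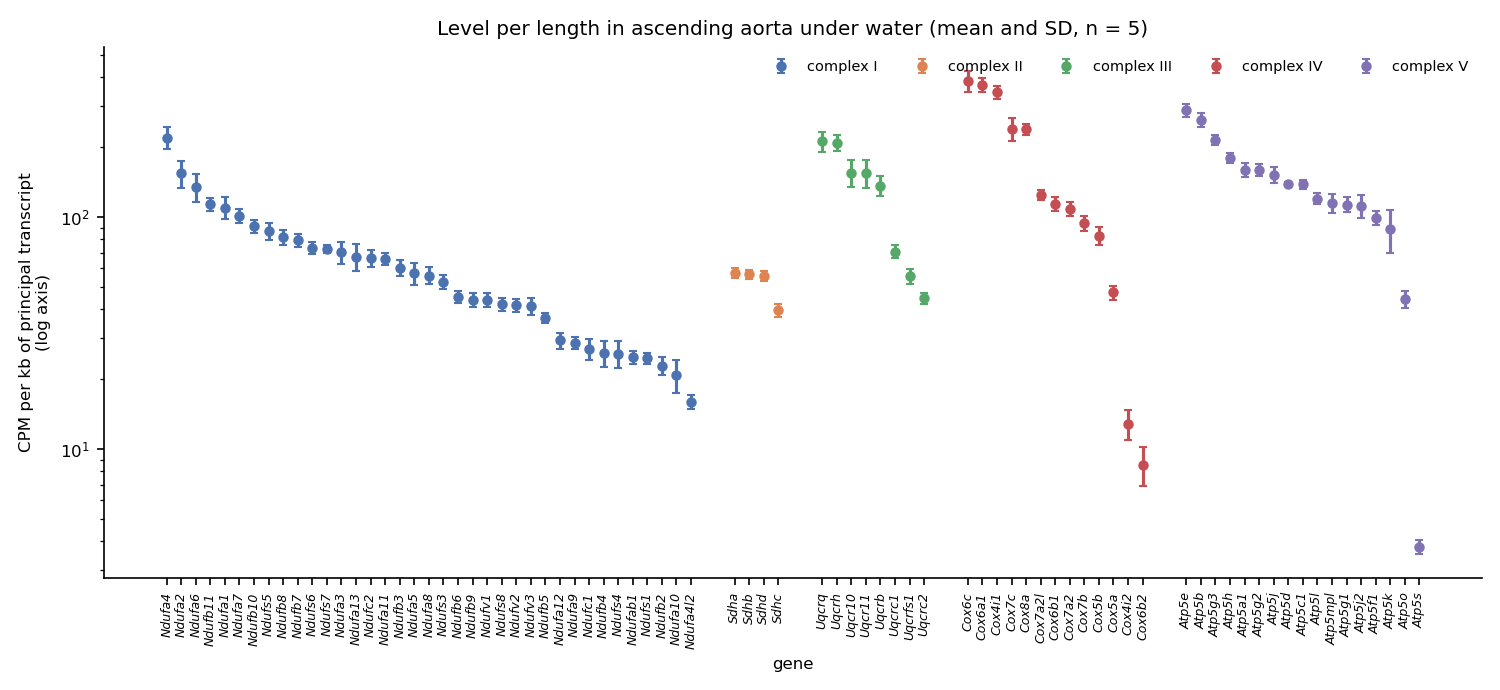
Level of 79 tested genes in ascending aorta under water, as CPM per kb of the principal transcript on a log axis; points are means and bars the SD of 5 libraries, ordered from high to low within each complex. Cox6c, Cox6a1 and Cox4i1 sit at the top, while Ndufa4l2, Cox4i2, Cox6b2 and Atp5s lie below the other members of their complexes.

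Between regions the clearest difference was in isoforms of complex IV and in 1 complex I subunit. Cox4i2, the isoform of cytochrome c oxidase subunit 4 linked to low oxygen (chr2:152754173-152765037, GRCm38), was lower in descending aorta under both treatments. It stood at 11.2, 8.83, 9.66, 7.30 and 9.64 CPM in the 5 ascending water libraries and at 6.14, 5.24, 4.30, 6.17 and 4.17 CPM in the descending ones. The regions did not overlap, and the log2 difference, descending minus ascending, was -0.84 (SE 0.14, adjusted p = 3.18e-05). Under BAPN the ascending libraries held 7.99, 7.94, 10.5, 12.3 and 8.28 CPM and the descending ones 4.93, 4.95, 4.51, 5.11 and 4.57 CPM. Again no library of one region reached the other, with a log2 difference of -0.97 (SE 0.14, adjusted p = 5.17e-06). Cox4i1, the isoform found in most tissues, was not called (0.08, SE 0.06, adjusted p = 0.355 under water). The share of Cox4i2 in the CPM per kb of both isoforms was 3.59% (SD 0.485) in ascending and 1.94% (SD 0.385) in descending aorta under water, and 3.45% (SD 0.71) and 1.78% (SD 0.162) under BAPN.

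Ndufv3, which encodes a small subunit of the NADH-oxidizing module of complex I (chr17:31520115-31531331), was higher in descending aorta. Under water its ascending values were 72.1, 66.7, 65.2, 65.7 and 56.6 CPM and its descending values 82.6, 98.1, 102, 87.6 and 82.7 CPM. Every descending library lay above every ascending one, 1.39-fold on the fitted means (log2 difference 0.47, SE 0.07, adjusted p = 6.89e-06). Under BAPN the ascending libraries gave 74.2, 68.4, 61.7, 67.4 and 78.2 CPM and the descending ones 93.0, 83.2, 85.4, 77.7 and 86.9 CPM. The highest ascending library there passed the lowest descending one, and the log2 difference was 0.29 (SE 0.07, adjusted p = 0.00268). The other 2 Ndufv subunits of that module were not called under water: the flavin-binding Ndufv1 (log2 difference 0.05, SE 0.07, adjusted p = 0.638) and Ndufv2 (0.08, SE 0.06, adjusted p = 0.361).

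Ndufa4l2 (chr10:127514967-127517154) was also higher in descending aorta. It held 13.8, 16.1, 15.7, 13.9 and 15.2 CPM in ascending and 19.96, 19.9, 23.3, 18.7 and 18.5 CPM in descending libraries under water. The regions were fully apart (log2 difference 0.43, SE 0.09, adjusted p = 0.000937). Under BAPN the ascending values were 17.1, 13.5, 12.6, 13.9 and 12.4 CPM and the descending ones 19.6, 22.1, 15.1, 18.5 and 18.7 CPM. One ascending library then lay above 1 descending library, with a log2 difference of 0.43 (SE 0.10, adjusted p = 0.000956). Cox4i2 and Ndufa4l2, both known from cells at low oxygen, differed between the regions in opposite directions. Of the 12 hypoxia targets of a separate list, 0 were higher and 4 lower in descending aorta under water. Among all genes tested 12.1% were higher and 15.2% lower there. Under BAPN 2 of the 12 were higher and 3 lower, beside 14.2% and 15.6% of all genes tested. Egln3, a prolyl hydroxylase of that list, was at 15.8 CPM (SD 1.28) in ascending and 6.73 CPM (SD 0.669) in descending aorta under water (log2 difference -1.22, SE 0.09, adjusted p = 5.09e-11).

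Across all members, 8 of 80 were higher and 1 lower in descending aorta under water, where 12.1% of all genes tested were higher and 15.2% lower. The median log2 difference of the members was 0.07, with 67 above 0, against 0.01 for all genes. The called genes were Ndufv3, Ndufa4l2, Ndufs5, Cox6a1, Uqcrq, Atp5e, Ndufa11 and Atp5l on the higher side and Cox4i2 on the lower. Under BAPN 6 were higher and 5 lower, where 14.2% of all genes were higher and 15.6% lower, and the median was -0.05, with 20 above 0, against 0.01 for all genes. All 6 genes that were higher under BAPN were among the 8 higher under water, as 61.8% of all genes higher under BAPN were among those higher under water. Without 1 library the median ran from 0.03 to 0.11 under water, at 0.04 without ascending water replicate 3, 0.03 without descending water replicate 2 and 0.11 without descending water replicate 4. Under BAPN it ran from -0.07 to -0.01, at -0.02 without ascending BAPN replicate 4, -0.03 and -0.01 without descending BAPN replicates 1 and 5 and -0.07 without replicate 4. With the pseudogene set as a term the medians were 0.06 under water and -0.02 under BAPN. The water and BAPN comparisons share no library, but each shares libraries with the comparisons of BAPN with water below. By complex, the higher calls under water were 4 of 38 in complex I, 0 of 4 in II, 1 of 8 in III, 1 of 13 in IV and 2 of 17 in V.

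Cox6a1, the ubiquitous isoform of subunit 6A of complex IV, stood at 220.1, 236, 204, 201 and 201 CPM in ascending and at 259.9, 266, 259.7, 243 and 231 CPM in descending aorta under water. Only the lowest descending library fell within the ascending range (log2 difference 0.25, SE 0.06, adjusted p = 0.00292). Under BAPN the ascending values were 213, 211, 217, 222 and 226 CPM and the descending values 251, 276, 273, 278 and 212 CPM. Descending replicate 5 lay among the ascending libraries and the other 4 above them (log2 difference 0.24, SE 0.06, adjusted p = 0.00325). Uqcrq, a small subunit of complex III, was higher by 0.23 (SE 0.08, adjusted p = 0.0347) under water and by 0.28 (SE 0.08, adjusted p = 0.0118) under BAPN on the log2 scale. Its call under water held in 13 of the 20 fits that left out 1 library.

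Ndufa11, a membrane-arm subunit of complex I, stood at 35.8 CPM (SD 2.16) in ascending and 40.5 CPM (SD 2.03) in descending aorta under water (log2 difference 0.18, SE 0.05, adjusted p = 0.0112). Atp5l, subunit g of the ATP synthase, stood at 65.3 CPM (SD 3.42) and 73.5 CPM (SD 3.72) in the same groups (0.17, SE 0.05, adjusted p = 0.00908). Of the 50-base windows of the Atp5l transcript 84.8% also occur in other annotated transcripts, so its counts are uncertain. For Ndufs5, a complex I subunit with 41.2% shared windows, the values were 47.2, 50.8, 40.9, 43.3 and 45.4 CPM in ascending and 57.7, 61.2, 55.9, 54.4 and 46.1 CPM in descending aorta. It was called under water (0.28, SE 0.07, adjusted p = 0.00405) and not under BAPN (-0.01, SE 0.07, adjusted p = 0.926). The transcribed regions of Ndufa4l2, Ndufa11, Atp5j, Atp5l and Cox6c overlap a gene on the other strand, and whether the counting used strand is not given in the sources used here.

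Members lower in descending aorta under BAPN besides Cox4i2 were Cox6c, Ndufa5, Atp5g1 and Atp5g3. Cox6c, a small subunit of complex IV, held 186, 198, 174, 234 and 208 CPM in ascending and 146, 166, 157, 168 and 144 CPM in descending libraries. No descending library reached the ascending range (log2 difference -0.36, SE 0.09, adjusted p = 0.00256). Under water its log2 difference was -0.20 (SE 0.09, adjusted p = 0.104). Atp5g1 and Atp5g3 are 2 of the 3 genes that encode the same subunit c of the proton-conducting ring. Atp5g1 stood at 71.3, 65.1, 67.6, 78.0 and 73.9 CPM in ascending and 58.4, 61.1, 61.8, 61.1 and 57.6 CPM in descending aorta under BAPN, with no overlap (log2 difference -0.25, SE 0.05, adjusted p = 0.000545). Atp5g3 was lower by 0.19 (SE 0.05, adjusted p = 0.00478), and Atp5g2 did not pass the test (-0.00, SE 0.06, adjusted p = 0.988). The windows of Atp5g1 and Atp5g2 are shared for 66.0% and 100% with other transcripts, while those of Atp5g3 are shared for 0%.

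All ascending BAPN libraries had high and all descending BAPN libraries low pseudogene levels, so region and pseudogene set cannot be told apart within that comparison. In a fit over all groups with the set as a term, 3 of the 11 members called there remained so, Atp5l higher (adjusted p = 0.0161) and Cox4i2 (adjusted p = 0.000227) and Atp5g1 (adjusted p = 0.0163) lower. The other 8 were no longer called. On the higher side these were Ndufv3 (0.15, adjusted p = 0.32), Ndufa4l2 (0.34, adjusted p = 0.0865), Cox6a1 (0.18, adjusted p = 0.182), Uqcrq (0.18, adjusted p = 0.333) and Ndufa11 (0.20, adjusted p = 0.0792). On the lower side they were Cox6c (-0.26, adjusted p = 0.182), Ndufa5 (-0.17, adjusted p = 0.392) and Atp5g3 (-0.16, adjusted p = 0.143). Under water both sets hold both regions. There Ndufv3, Cox4i2 and Ndufa4l2 were called within the high set (adjusted p = 0.00266, 0.031 and 0.0213) and within the low set (adjusted p = 0.00105, 0.00439 and 0.0206). Cox6a1 was called in the high set (0.32, SE 0.07, adjusted p = 0.00946) but not in the low one (0.19, SE 0.07, adjusted p = 0.0881), and Uqcrq likewise (adjusted p = 0.0189 and 0.176). Within neither set, each with fewer libraries, were Ndufs5 (0.30, adjusted p = 0.0812, and 0.26, adjusted p = 0.0719), Atp5e (adjusted p = 0.202 and 0.19), Ndufa11 (adjusted p = 0.186 and 0.255) and Atp5l (adjusted p = 0.0736 and 0.405) called. With the set as a term over all groups, 8 members were higher and 1 lower under water.

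**Figure D2:**
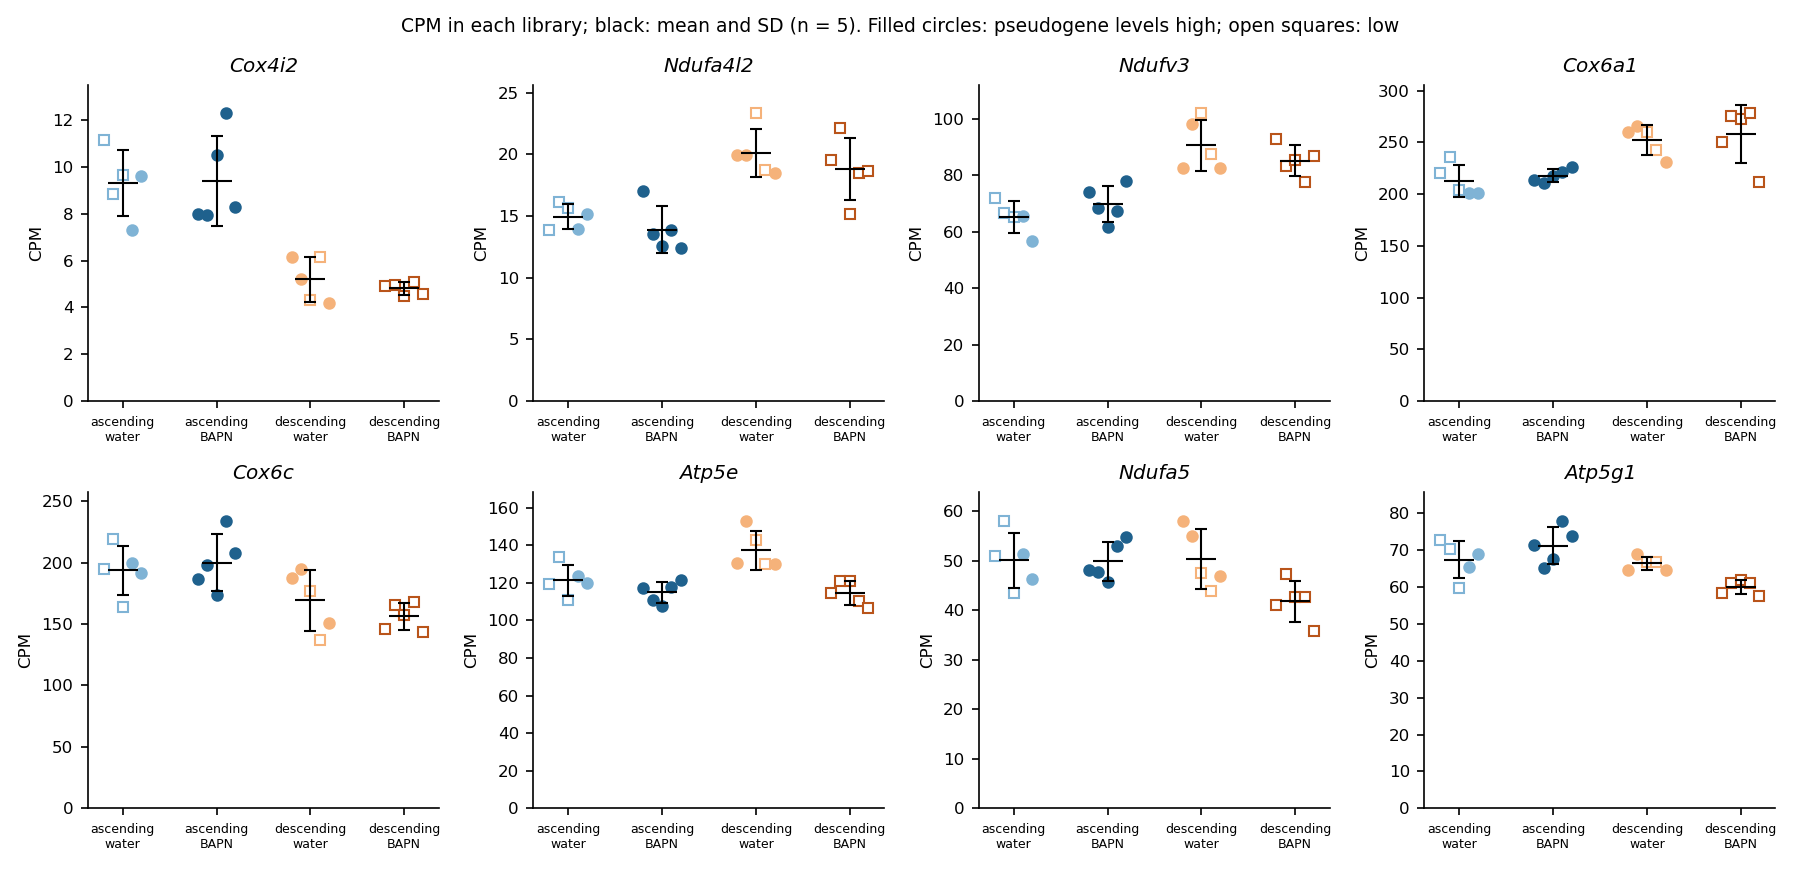
CPM of 8 members in each of the 20 libraries by group; black marks are the mean and SD of 5 libraries, filled circles are libraries with high and open squares with low pseudogene levels, and each axis starts at 0. Cox4i2 is lower in all 10 descending libraries (4.17 to 6.17 CPM) than in all 10 ascending ones (7.30 to 12.3 CPM).

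The 250 bases before the RefSeq transcription start are printed for 3 of the called members. Ndufv3 and Cox6a1 were higher in descending aorta under water, and Atp5e fell with BAPN in the descending aorta, as described next. The windows come from RefSeq's table on GRCm38.p6 and are written 5′ to 3′ on the gene's strand. Capitals mark the searched motifs on either strand: the NRF1 core GCGCATGC, the ETS/GABP motif CCGGAAG, the YY1 motif AAGATGGC, the SP1 box GGGCGG, the estrogen-related receptor motif CAAGGTCA and the hypoxia response core ACGTG.
Ndufv3, chr17:31519865-31520114, plus strand: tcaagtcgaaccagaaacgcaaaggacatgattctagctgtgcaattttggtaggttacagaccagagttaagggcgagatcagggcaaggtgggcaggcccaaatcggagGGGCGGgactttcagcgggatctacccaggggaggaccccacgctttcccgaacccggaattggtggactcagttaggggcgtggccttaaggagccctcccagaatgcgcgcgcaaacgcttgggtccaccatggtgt
Cox6a1, chr5:115348959-115349208, minus strand: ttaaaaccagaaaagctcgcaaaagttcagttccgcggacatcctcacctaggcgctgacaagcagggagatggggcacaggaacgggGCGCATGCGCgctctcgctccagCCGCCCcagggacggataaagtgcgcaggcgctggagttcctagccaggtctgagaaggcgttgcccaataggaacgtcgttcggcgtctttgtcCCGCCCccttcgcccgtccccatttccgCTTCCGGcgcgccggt
Atp5e, chr2:174464102-174464351, minus strand: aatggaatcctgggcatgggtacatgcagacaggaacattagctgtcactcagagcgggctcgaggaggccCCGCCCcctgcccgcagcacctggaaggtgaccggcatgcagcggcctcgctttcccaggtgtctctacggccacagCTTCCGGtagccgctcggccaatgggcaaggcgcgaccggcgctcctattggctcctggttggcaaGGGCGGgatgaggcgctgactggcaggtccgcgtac
The Ndufv3 window held 1 SP1 box and none of the other motifs. The Cox6a1 window held 2 overlapping NRF1 cores, 1 ETS/GABP motif and 2 SP1 boxes, and that of Atp5e held 1 ETS/GABP motif and 2 SP1 boxes. Over the full 300-base windows, which add 50 bases after the start, promoters of 67 of the 82 member symbols were at hand, 2 of them under RefSeq's own symbols. NRF1 and GABP are known activators of respiratory chain genes. The NRF1 core was found in 10 of the 67 (14.9%) and in 3.05% of all 27025 genes with a promoter, the ETS/GABP motif in 16 (23.9%) and 9.93%, and the YY1 motif in 10 (14.9%) and 3.19%. For the SP1 box the shares were 43.3% and 38.2%, for the estrogen-related receptor motif 5.97% and 1.76%, and for the hypoxia response core 23.9% and 21.8%. A match of letters is a description and not evidence of binding.

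After BAPN in the descending aorta 4 members were lower and none higher, of 80. The 4 were Atp5e and Atp5j of the ATP synthase, Ndufa5 of complex I and Cox6b2 of complex IV, with fitted declines of 1.13-fold to 1.501-fold. Among all genes tested 4.54% were lower and 6.18% higher. Without any 1 library the count ran from 1 to 5: it was 1 without descending BAPN replicate 1, and 2, both lower, without descending BAPN replicate 3 or 4 or descending water replicate 1, 2 or 3. Without descending BAPN replicate 5 the 2 called were Atp5e, lower, and Ndufa9, higher, while Cox6b2, Ndufa5 and Atp5j were not called. The members' median log2 difference, BAPN minus water, was -0.08, with 65 of 80 below 0, against -0.00 and 7785 of 15543 for all genes. That median was -0.05 without descending water replicate 2 and without descending BAPN replicate 5. By complex the medians were -0.10 in I, 0.00 in II, -0.06 in III, -0.10 in IV and -0.07 in V. At unadjusted p under 0.05 were 15 lower members and 1 higher. The share of all genes at that threshold is not given here, so these counts cannot be read as particular to the members.

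Atp5e encodes the ε subunit of the rotor stalk of ATP synthase (chr2:174461072-174464105). Its libraries held 131, 153, 143, 130.2 and 130.1 CPM under water and 115, 121, 121, 110.4 and 107 CPM under BAPN. Every BAPN library lay below every water library (log2 difference -0.26, SE 0.05, adjusted p = 0.00241). In the fit with the pseudogene set as a term the difference was -0.25 (adjusted p = 0.0149). Within the low set, 2 water against 5 BAPN libraries, it was -0.26 (SE 0.09, adjusted p = 0.058). Atp5g1 did not overlap between the groups either and missed the threshold (-0.15, SE 0.05, adjusted p = 0.0765). In ascending aorta Atp5e was at 121 CPM (SD 8.26) under water and 115 CPM (SD 5.58) under BAPN, which was not called (-0.08, SE 0.05, adjusted p = 0.461). Its call between regions under water and its call after BAPN in descending aorta both use the descending water libraries (137.4 CPM, SD 10.4). The 2 calls are therefore not separate results.

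Ndufa5, a subunit of the peripheral arm of complex I, held 58.1, 55.1, 47.6, 43.9 and 46.9 CPM under water and 41.0, 47.3, 42.6, 42.7 and 35.8 CPM under BAPN in descending aorta. The groups overlapped at the highest BAPN library, and the log2 difference was -0.27 (SE 0.08, adjusted p = 0.0397). Atp5j, coupling factor 6 in the stalk of the synthase, held 128, 136, 121, 112 and 119 CPM under water and 112, 109.5, 113, 108 and 99.4 CPM under BAPN. Here too the lowest water library lay within the range of the others (log2 difference -0.18, SE 0.06, adjusted p = 0.0428). Cox6b2, a subunit 6B isoform best known from testis, stood at 3.58, 4.56, 5.11, 4.99 and 4.91 CPM under water and at 2.69, 4.11, 2.81, 3.21 and 2.62 CPM under BAPN. Its fall was the largest of the 4 at the lowest level (log2 difference -0.59, SE 0.17, adjusted p = 0.0231), while its abundant counterpart Cox6b1 was at 73.5 CPM (SD 6.56) and 72.6 CPM (SD 6.89). Of these 3 genes none was called with the pseudogene set as a term (adjusted p = 0.212 for Ndufa5, 0.164 for Atp5j and 0.0651 for Cox6b2). None was called without the 4 libraries that were highest in brown adipocyte markers in their group (adjusted p = 0.167, 0.23 and 0.0786), where Atp5e remained called (adjusted p = 0.0414).

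In ascending aorta no member was called after BAPN by edgeR, DESeq2 or limma-voom, where edgeR called 3.44% of all genes higher and 2.91% lower. At unadjusted p under 0.05 were 10 members, all of them higher, and no share of all genes at that threshold is given here. The smallest p-values belonged to Ndufb9, an accessory subunit of complex I, Atp5a1, the α subunit of the synthase, and Ndufa9, a complex I subunit at the membrane junction. Ndufb9 stood at 30.9 CPM (SD 2.17) under water and 35.3 CPM (SD 1.95) under BAPN (log2 difference 0.19, SE 0.07, adjusted p = 0.122). Atp5a1 stood at 395 and 430.1 CPM (0.12, SE 0.05, adjusted p = 0.128), and Ndufa9 at 41.3 and 45.8 CPM (0.15, SE 0.06, adjusted p = 0.136). All ascending BAPN libraries but only ascending water replicates 4 and 5 had high pseudogene levels. In the edgeR fit with the pseudogene set as a term Ndufb9, Atp5a1 and Ndufa9 were at 0.20, 0.09 and 0.11 (adjusted p = 0.236, 0.449 and 0.454). Without ascending water replicate 1, Atp5a1 was called (0.16, adjusted p = 0.0465). The median log2 difference of the members was 0.03, with 55 of 80 above 0, against -0.01 for all genes. Without ascending BAPN replicate 4, which had the most Ucp1 and cardiomyocyte markers of its group, that median was -0.00, and it was 0.00 without ascending water replicate 3. It was 0.05 to 0.06 without ascending water replicate 1 or 2 or ascending BAPN replicate 1, 2 or 3. The missing calls do not show that levels were equal: the median SE was 0.07 on the log2 scale, and the 95% interval of Ndufb9 ran from 0.04 to 0.34.

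Whether BAPN acted differently in the 2 regions was tested gene by gene. None of the 80 members was called by edgeR, DESeq2 or limma-voom, and edgeR called 0.0% of all genes in either direction. The effect in descending minus that in ascending aorta was below 0 for 71 members, with a median of -0.11 against 0.01 for all genes. Without 1 library that median ran from -0.14 to -0.08. The difference is made from the same libraries as the comparisons above, so it is not a separate result. At unadjusted p under 0.05 were 11 members, all below 0, and no share of all genes at that threshold is given here. All ascending BAPN libraries had high and all descending BAPN libraries low pseudogene levels, so this difference and the pseudogene set cannot be fully told apart. The smallest p-values were those of Atp5g1 (-0.23, SE 0.07, adjusted p = 0.438), Ndufb3 (-0.41, SE 0.13, adjusted p = 0.438) and Ndufs5 (-0.29, SE 0.10, adjusted p = 0.518). In the edgeR fit with the pseudogene set as a term these genes were at -0.24, -0.32 and -0.33 (adjusted p = 0.857, 0.892 and 0.861). Ndufb3, an accessory subunit of complex I, held 46.8, 49.5, 40.0, 47.2 and 46.6 CPM under water and 51.4, 50.3, 48.6, 56.6 and 57.5 CPM under BAPN in ascending aorta. In descending aorta it held 64.8, 55.8, 53.7, 50.8 and 46.8 CPM under water and 47.9, 54.3, 51.1, 48.7 and 33.9 CPM under BAPN. Its descending groups overlapped, and BAPN replicate 5 was the lowest.

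**Figure D3:**
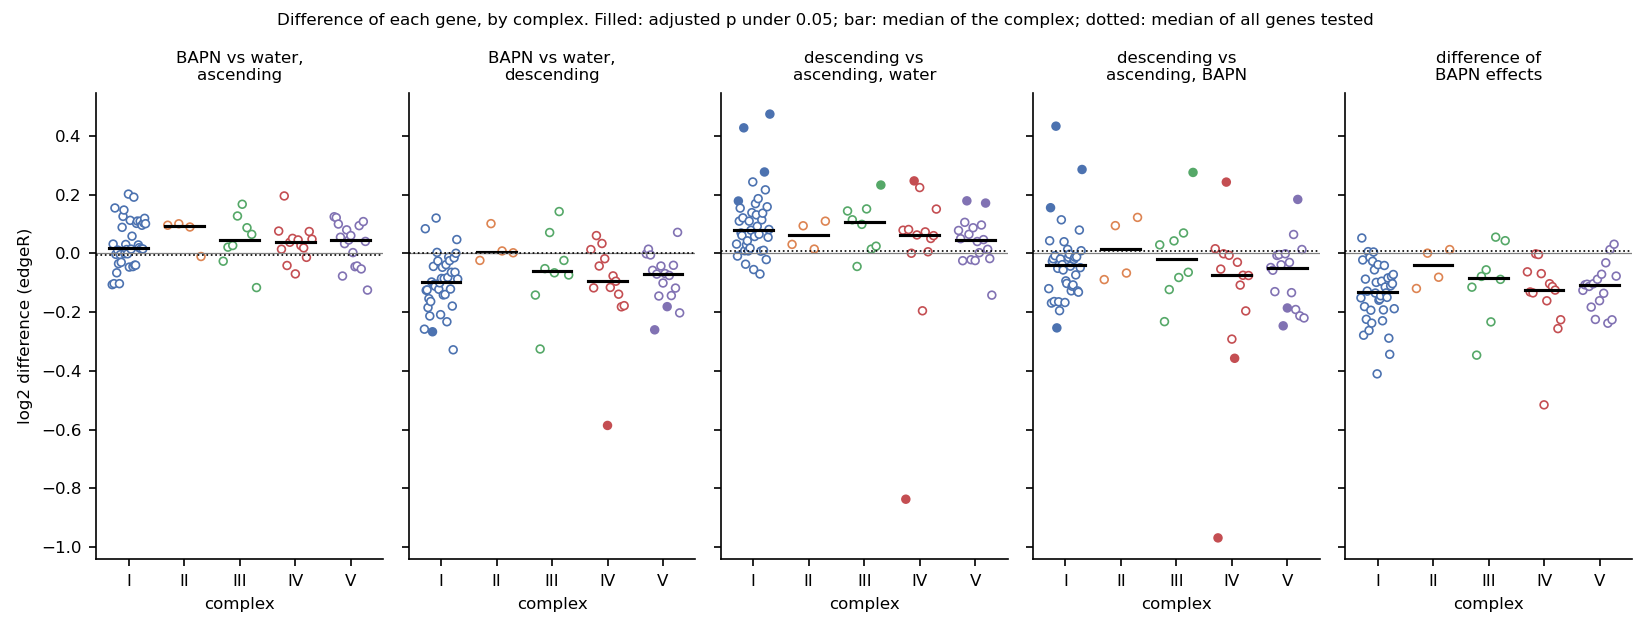
Log2 difference of each tested member, by complex, in the 5 comparisons; filled points had an adjusted p under 0.05, black bars are the median of the complex and the dotted line is the median of all 15543 genes tested. Only Cox4i2 lies below -0.8, and no point is filled for BAPN in ascending aorta or for the difference of the BAPN effects.

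A list of 10 subunits from the 5 complexes, called core subunits here, gave no calls. The 10 checked were Ndufs1 and Ndufv1 of complex I, Sdha and Sdhb of complex II, Uqcrfs1 and Uqcrc1 of complex III, Cox5a and Cox5b of complex IV and Atp5a1 and Atp5b of complex V. None was called in any of the 5 comparisons by edgeR, DESeq2 or limma-voom with all libraries, at log2 differences between -0.13 and 0.20 in edgeR. EdgeR called 2.91% to 15.6% of all genes tested in each direction in the comparisons of treatment and of region. It called 0.0% for the difference of the BAPN effect. With 10 genes, the absence of calls cannot be read as particular to them. At unadjusted p under 0.05 in edgeR were 4 of the 10 for BAPN in ascending aorta and 0 in the other 4 comparisons. The share of all genes at that threshold is not given here. The β subunit Atp5b, the most counted member, was at 503 CPM (SD 35.9) in ascending water, 546.9 CPM (SD 37.5) in ascending BAPN, 520.4 CPM (SD 20.4) in descending water and 526 CPM (SD 45.5) in descending BAPN. Summed over complex I, members held 1849 to 2200 CPM in ascending water, 1908 to 2233 in ascending BAPN, 1999 to 2336 in descending water and 1797 to 2173 in descending BAPN. The summed CPM of complex II ran from 402 to 446 in ascending water and from 408 to 474 in descending BAPN, and the sums of complexes III, IV and V overlapped among all 4 groups as well.

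Most members varied together from library to library within groups. Over the 20 libraries, with each gene taken as its deviation from its group mean, the median Pearson correlation of 3160 pairs of members was 0.53, against -0.0 for all pairs of tested genes. It was 0.52 within complexes and 0.53 between them. Members paired with genes of other lists had medians of 0.474 for fatty acid oxidation, 0.446 for the citric acid cycle and 0.375 for the cytosolic ribosome. The medians were 0.264 with the mitochondrial-encoded subunits, 0.221 with the mitochondrial ribosome and 0.175 with glycolysis. Varying together was thus not particular to the members. These points share library and depth, so the values are a description. Since members varied together, a count of members with the same sign or at unadjusted p under 0.05 is not one of independent genes. Cox7b (0.71), Ndufb4 (0.69) and Atp5h (0.69) had the highest median correlation with the other members, and Ndufa11 (-0.20), Atp5s (-0.07), Ndufb2 (0.10), Ndufa4l2 (0.10) and Cox4i2 (0.15) the lowest. In ascending BAPN replicate 4, 75 of 80 members lay above their group mean (median deviation 0.11 on the log2 scale), and in descending water replicate 2, 74 did (0.12). In ascending water replicate 3, 6 did (-0.11), and in ascending BAPN replicate 3, 9 (-0.11). In descending aorta 8 did in water replicate 4 (-0.09), 11 in water replicate 5 (-0.09) and 11 in BAPN replicate 5 (-0.13).

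The spread differed among members. The median within-group SD was 0.143 on the log2 scale for the 25 tested members with a transcript under 600 bases and 0.114 for the 55 longer ones, against 0.137 for all genes tested. It was largest for Atp5k (0.329), subunit e of the synthase, Ndufs6 (0.274) of complex I and Uqcr11 (0.261) of complex III. In descending BAPN aorta Ndufs6 held 40.2, 47.4, 45.0, 38.7 and 21.8 CPM and Uqcr11 64.3, 72.1, 70.2, 53.1 and 37.3 CPM, so replicate 5 was the lowest for both. Cox7a2l (0.062) and Sdhc (0.065) varied least. After BAPN in descending aorta the median log2 difference was -0.14 for the shorter members and -0.06 for the longer ones.

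**Figure D4:**
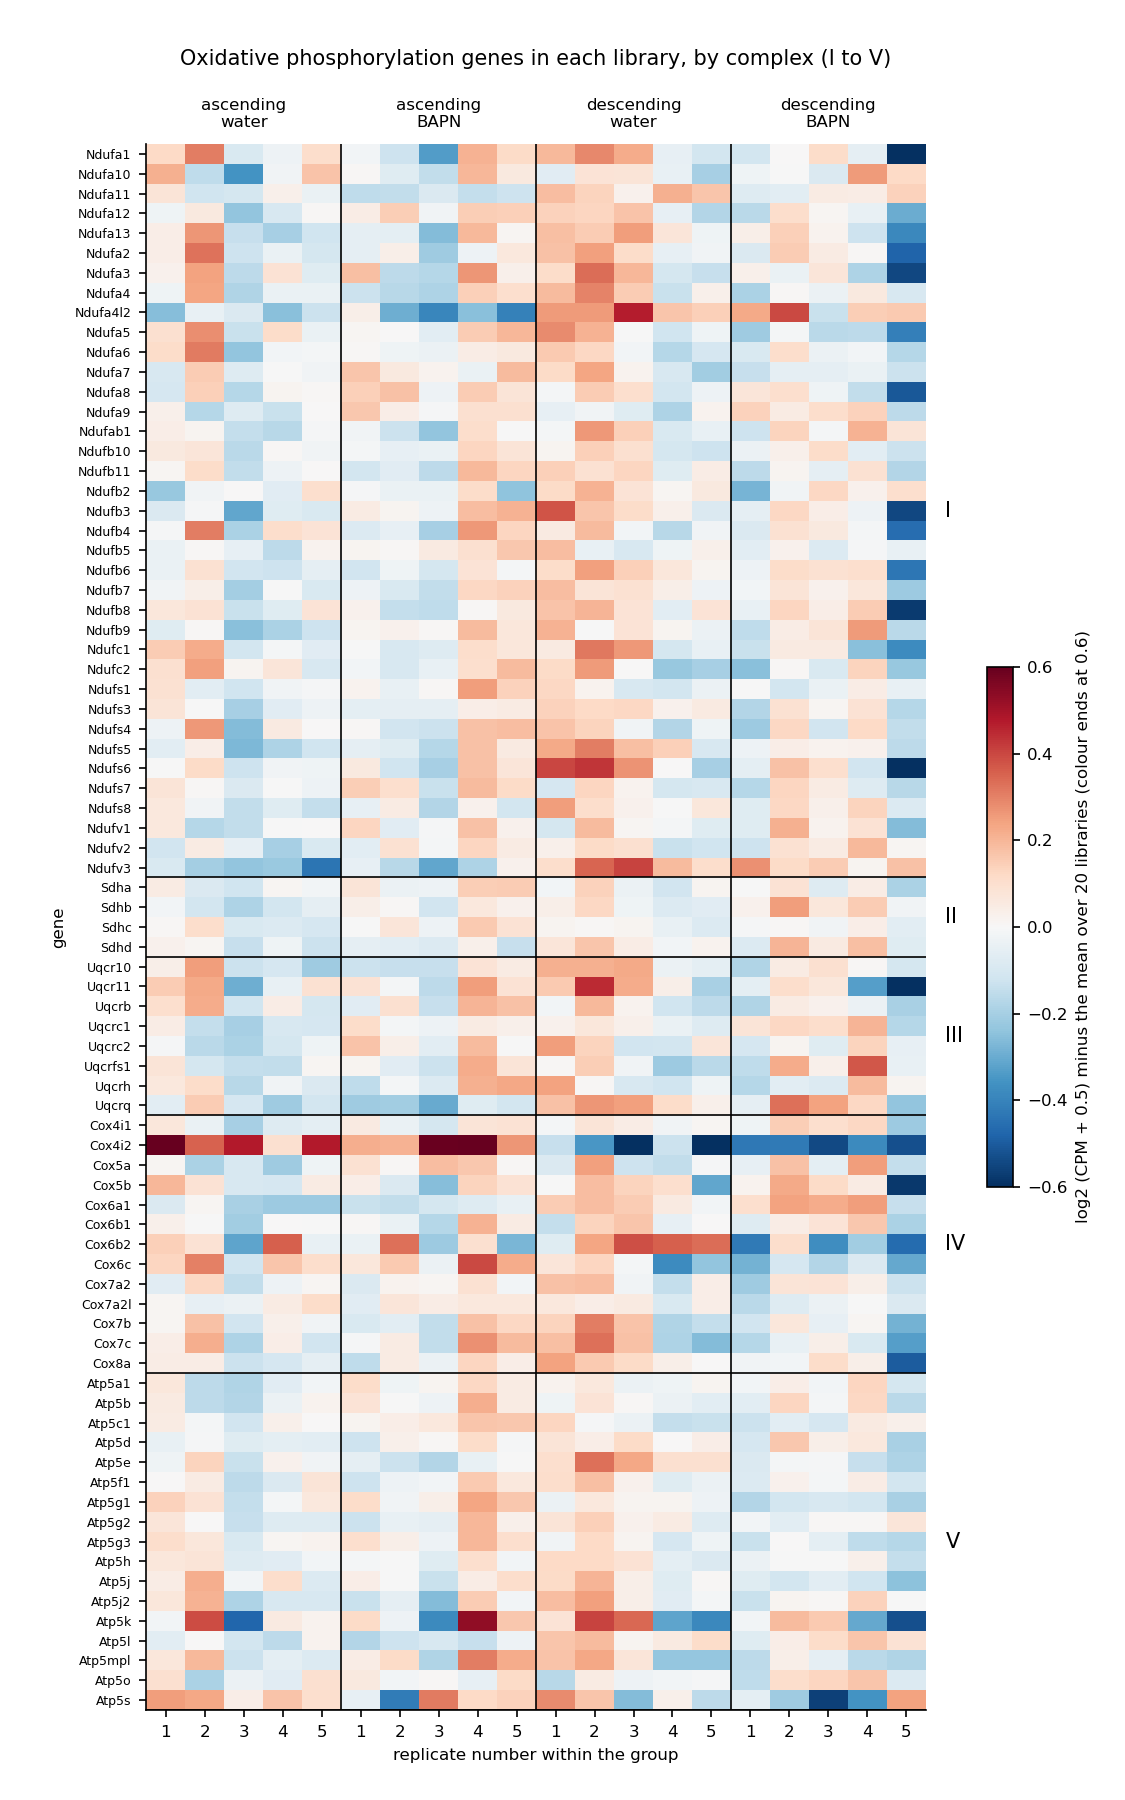
Heat map of 79 tested members (rows, by complex) in the 20 libraries (columns, by group), as log2 (CPM + 0.5) minus the gene's mean over all libraries; red is above and blue below, and the colour ends at 0.6. Whole columns shift together, as in ascending BAPN replicate 4 and descending BAPN replicate 5, while Cox4i2 and Ndufa4l2 change between ascending and descending libraries.

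Ucp1 was high in some of the libraries where the members were high, and the part of brown fat and heart muscle markers in the results was not tested. In ascending water Ucp1 was highest in replicate 1 (21.8 CPM), where 65 members lay above the group mean. It was lowest there in replicate 3 (0.207 CPM), where 6 did. Ucp1 was at 25.5 CPM in ascending BAPN replicate 4 and at 0.418 to 2.12 CPM in the other 4 of the group. It was at 61.3 CPM in descending water replicate 2, the highest of that group, where the members were highest too. In descending BAPN aorta it was at 97.4 CPM in replicate 4 and 88.9 CPM in replicate 2, where 66 and 68 members lay above the group mean, and at 33.9 CPM in replicate 5. In other libraries the pattern was not seen. Ascending water replicate 2 had 63 members above the mean at 3.33 CPM of Ucp1, ascending BAPN replicate 5 had 64 at 2.12 CPM and descending water replicate 1 had 59 at 24.9 CPM. Descending water replicate 5 had 11 above the mean at 38.7 CPM. Cardiomyocyte markers had their largest sum in ascending BAPN replicate 4 (1487 CPM). In ascending water replicate 1, where 65 members lay above the group mean, that sum was the highest of the group (1185 CPM). In ascending water replicate 2 and descending water replicate 2, where the members were highest, that sum was the lowest of the group (509 and 79.6 CPM). In descending BAPN replicate 5, where the members were lowest, it was the highest (91.7 CPM). All descending sums lay between 79.6 and 92.8 CPM.

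**Figure D5:**
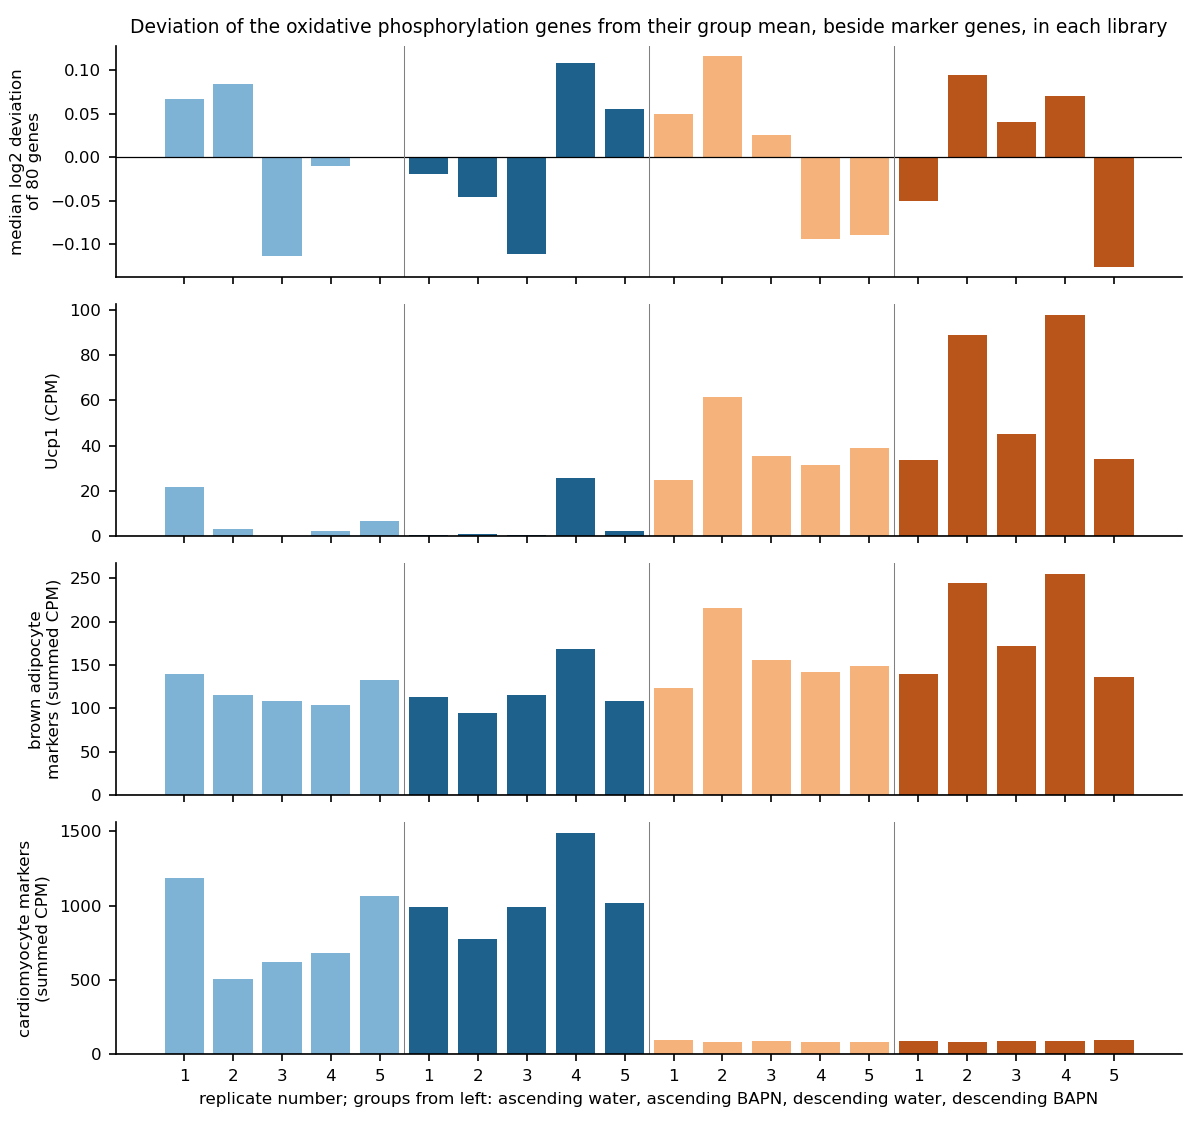
For each library, from top to bottom, the median deviation of the 80 members from their group mean (log2), the CPM of Ucp1 and the summed CPM of the brown adipocyte and of the cardiomyocyte markers; bars are single libraries in 4 groups of 5. The tallest bars of the top panel in ascending BAPN and descending water, replicates 4 and 2, are also the tallest of their group for Ucp1.

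The 3 muscle isoforms left out by the rule were read beside their counterparts. Cox7a1 and Cox8b are also on the list of brown adipocyte markers. Cox6a2, the heart and skeletal muscle form of subunit 6A, was at 5.72 to 22.95 CPM in the ascending libraries and at 0.0 to 0.41 CPM in the descending ones, and was called lower in descending aorta under both treatments (adjusted p = 6.49e-11 and 4.16e-12). Its share in the CPM per kb of Cox6a1 and Cox6a2 was 3.88% (SD 1.53) in ascending and 0.0564% (SD 0.0441) in descending aorta under water. Cox8b was at 6.12 CPM (SD 3.08) in ascending and 10.9 CPM (SD 5.23) in descending aorta under water (log2 difference 0.84, SE 0.39, adjusted p = 0.119). Cox7a1 was at 5.38 CPM (SD 2.78) and 5.44 CPM (SD 1.83). Among the paralogs kept by the rule, Cox7a2l made up 53.5% (SD 2.11) of the CPM per kb of Cox7a2 and Cox7a2l in ascending and 52.4% (SD 1.73) in descending aorta under water. The pair Ndufa4 and Ndufa4l2 drew 6.83% (SD 0.699) from Ndufa4l2 in ascending and 8.31% (SD 0.836) in descending aorta under water.

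Of the 13 subunits encoded in mitochondrial DNA, 5 were lower and 0 higher after BAPN in descending aorta, with a median log2 difference of -0.19, where 4.54% of all genes tested were lower and 6.18% higher, and 0 of 13 were called in ascending aorta by edgeR, DESeq2 or limma-voom (2 lower at unadjusted p under 0.05 in edgeR). DESeq2 called 6 and limma-voom 3 of the 13 lower in descending aorta. With the pseudogene set as a term edgeR called 0 of the 13 there, and 0 were at unadjusted p under 0.05. Among the 5 were mt-Co2 (-0.95, SE 0.24, adjusted p = 0.0095), mt-Atp6 (-0.96, SE 0.27, adjusted p = 0.0232) and mt-Nd4 (-0.24, SE 0.07, adjusted p = 0.0297). Levels of mt-Co2 separated with the pseudogene sets: 42.9 to 60.7 CPM in the 10 libraries of the high set and 19.8 to 33.9 CPM in the 10 of the low set. For mt-Atp6 the ranges were 48.5 to 70.4 and 18.8 to 32.5 CPM. The ranges of mt-Atp8 (1.62 to 2.63 and 0.483 to 1.5 CPM) and mt-Nd4l (8.04 to 13.97 and 3.81 to 6.38 CPM) were apart too. For mt-Co3 the ranges overlapped, with medians of 55.6 and 26.7 CPM, and those of mt-Nd4 and mt-Co1 overlapped as well. Both mt-Co2 and mt-Atp6 have near-identical copies in the nuclear genome. Their levels lay far under that of mt-Co1 at 10100 to 14110 CPM, so their counts are uncertain. The summed nuclear members overlapped between the sets, with 6595 to 7731 CPM in the high set and 6171 to 7300 CPM in the low set.

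Lists of related genes were counted in the same fits. The shares of all genes tested that were called higher and lower were 3.44% and 2.91% for BAPN in ascending aorta, 6.18% and 4.54% for BAPN in descending aorta, 12.1% and 15.2% between regions under water and 14.2% and 15.6% between regions under BAPN. Of 77 tested proteins of the mitochondrial ribosome, 0 were called after BAPN in ascending or descending aorta by edgeR (7 and 11 at unadjusted p under 0.05), while DESeq2 called 1 in ascending and 0 in descending aorta and limma-voom 0 in both, and 6 were higher and 1 lower in descending aorta under water. Of 35 assembly factors, 1 was lower after BAPN in descending aorta, the complex III factor Uqcc2 (-0.35, SE 0.10, adjusted p = 0.032). Of 17 genes of the citric acid cycle, 1 was higher after BAPN in ascending aorta, Suclg2 (adjusted p = 0.0264), and 3 were higher in descending aorta under water. Of 17 tested genes of fatty acid oxidation, 3 were higher there, among them the carnitine transferase Cpt2 (0.33, adjusted p = 0.00225). Of 18 glycolysis genes, 2 were higher after BAPN in ascending aorta, the lactate dehydrogenase Ldha (0.17, adjusted p = 0.0282) and the glucose transporter Slc2a1 (0.28, adjusted p = 0.00396), which is also on the list of hypoxia targets. Of 14 regulators of mitochondrial biogenesis, 3 were higher after BAPN in descending aorta: Pprc1 (0.28, adjusted p = 0.00509), Polrmt (0.20, adjusted p = 0.0336) and Yy1 (0.11, adjusted p = 0.0351). The coactivator Ppargc1a was lower in descending aorta, at 7.502 CPM (SD 1.31) in ascending and 3.81 CPM (SD 0.787) in descending aorta under water (-0.98, SE 0.16, adjusted p = 1.86e-05). It is 1 gene picked from that list. The 14 regulators summed to 430.3 CPM (SD 7.32) in ascending and 441.8 CPM (SD 8.50) in descending aorta under water. Cardiomyocyte markers were also higher in the ascending libraries, and their part in the Ppargc1a difference was not tested. Of 96 tested proteins of the cytosolic ribosome, 28 were lower and 4 higher in descending aorta under BAPN, with a median of -0.10. With the pseudogene set as a term 4 of these 96 were lower and 1 higher there. In that fit 1 biogenesis regulator was called higher after BAPN in descending aorta. After BAPN in ascending aorta it called 1 glycolysis gene higher and 0 genes of the citric acid cycle (3 at unadjusted p under 0.05).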

How the data were processed

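RNA-seq counts per gene were analysed for 20 libraries of 4 groups of 5. The reads were processed with fastp, aligned with STAR 2.5 to mm10 and counted with HTSeq 0.6.1, per the submitters' processing notes. Settings, strand use and the annotation used for counting are not given in the sources used here. The deposited counts are whole numbers without normalization, and the 20 per-library files equal the columns of the table. Symbols, biotypes and lengths were taken from GENCODE M21 on GRCm38 (54495 of 54532 gene IDs matched).

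The counts-per-million values (CPM) used TMM library sizes. Genes passed edgeR's filterByExpr at a minimum count of 10 (total 15), which left 15543. One edgeR 4.0.16 quasi-likelihood fit over the 4 groups (16 residual degrees of freedom, R 4.3.3) gave 5 comparisons: 2 of treatment, 2 of region and 1 of how the BAPN effect differed by region. Genes were called at a Benjamini-Hochberg adjusted p under 0.05 over all 15543. Unless another tool is named, each log2 difference, SE and adjusted p in the text comes from this fit. The script was tested on simulated data. Library totals of 15744725 to 23292294 counts limit the precision of genes at a few CPM. Deviations of libraries used log2 (CPM + 0.5).

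Alternatives were DESeq2 1.42.0, limma-voom 3.58.1, other scalings and filters, the compared groups alone, a replicate block, the pseudogene sets and leaving out each library. Omitting the 4 libraries highest in brown adipocyte markers, 1 per group, was added after seeing the data. The members and lists were chosen with earlier results of these data known. Named members are, per comparison, up to 6 called genes with the largest differences in each direction, the isoform families, the core subunits, the extremes of level per complex and, where none was called, the 3 with the smallest p. Other genes named beyond this rule were chosen after their values were seen. The labels do not say whether same-numbered libraries of the 2 regions came from 1 animal, so the numbers were not taken as pairing. If they did, the main fit leaves that pairing out of the comparisons of region. The separate values of 1 member are not reported here, and it is left out of the 2 figures that label each gene.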

Additional observations from a re-analysis of the deposited data

Results flagged for a closer look

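In 3 of the 152 groups of 5 libraries checked among the named members, 1 library stood far from the other 4, by a rule under which chance flags about 1 in 20 groups. Cox7a2l, a subunit 7A relative known for joining respiratory complexes, was at 126.0 CPM in ascending BAPN replicate 1 and at 136 to 139 CPM in the others of the group. In descending water replicate 4 it was at 124.0 CPM against 136 to 138 CPM in the others. Cox6b1, the common isoform of subunit 6B, was at 62.2 CPM in ascending water replicate 3 against 71.9 to 73.6 CPM in the others. In that library only 6 of the 80 tested members lay above their group mean.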

How the results depend on the processing

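Over the 5 comparisons no difference of a named member that was called changed direction, and 3946 differences kept their side of the threshold, 13 passed it and 70 lost it. With the pseudogene set as a term the members called after BAPN in descending aorta went from 4 to 1 and those between regions under BAPN from 11 to 3. The loss over all genes is not given here, so these losses cannot be read as particular to the members. The SE was also larger in that fit. For Ndufa11 between regions under BAPN it was 0.075 instead of 0.053, and the call was lost although the log2 difference rose from 0.16 to 0.20. Within the low set alone, with fewer libraries, 0 were called after BAPN in descending aorta and 3 instead of 9 between regions under water. Without the 4 libraries highest in brown adipocyte markers 1 was called after BAPN in descending aorta. With 1 library left out, 0 to 1 members were called for BAPN in ascending aorta, 1 to 5 in descending aorta, 8 to 14 between regions under water, 10 to 14 under BAPN and 0 for the difference of effects. The 14 under water came without descending BAPN replicate 5, and the cause was not tested. The median difference after BAPN in ascending aorta ran from -0.00 to 0.06 over these fits and in descending aorta from -0.11 to -0.05, between regions under water from 0.03 to 0.11 and under BAPN from -0.07 to -0.01. With a replicate block the counts were 0, 4, 10, 12 and 0 in the same order, and with the block within each treatment 13 under water and 17 under BAPN. The correlation of same-numbered libraries ran from -0.043 to 0.15 over the 4 pairs of groups. Pairs of groups of unlike treatment cannot hold the same animal, so only those between regions bear on pairing. Between the regions under BAPN 5 of 5 libraries correlated best with their own number, a hint from the data and not from the design. Under water 1 of 5 did. Under plain library totals 3 levels moved by more than their SD: Ndufa11 in ascending BAPN (34.1 CPM) and Atp5g1 (58.0 CPM) and Sdhc (123.6 CPM) in descending BAPN.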
